A study of Mus musculus with 11 samples.

Results

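The NMDA receptor is a glutamate-gated channel of excitatory synapses, and the 6 genes described here encode its subunits. They are Grin1, Grin2a, Grin2b, Grin2c, Grin2d and Grin3a, taken by name as a gene family, though with earlier results of these data known. They were 6 of 48709 gene identifiers counted, and all 6 were among the 17293 genes with enough counts to be tested. The mRNAs were measured by RNA sequencing of the CA1 field of the hippocampus, dissected under a microscope from mice aged 3 months. The transgenic group had 6 libraries of the genotype CamkdeltaC transgenic, and the control group had 5 libraries of littermate controls. No treatment, other allele or other agent is named for either group. The transgene encodes the C splice variant of CaM kinase II delta. This line, known as a mouse model of heart failure, carries it under a promoter active in heart muscle. Any difference in CA1 is between mice with a transgene directed to another organ and their littermate controls. How such a difference arises was not tested. Male and female mice were used, and the sex and litter of each library are not given. No label states that every library is a separate animal, so the p-values measure the spread between these libraries, which may be technical.

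NMDA receptors are tetramers that need GluN1, the product of Grin1, together with GluN2 subunits (Grin2a to Grin2d) or GluN3 subunits. Receptors of GluN1 and GluN2 open only when glutamate and a co-agonist, glycine or D-serine, are bound. They pass current once the membrane is depolarised enough to expel a blocking magnesium ion. The calcium that enters activates CaM kinase II and starts the synaptic plasticity for which CA1 is best known. GluN2A and GluN2B are the main GluN2 subunits of CA1 pyramidal neurons, GluN2C is best known from the cerebellum, GluN2D from interneurons, and GluN3A from young neurons, where it lowers calcium entry.

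The coding sequence around the narrowest point of the channel shows how the genes are related and how they differ in base composition. The stretches below, from 5 of the genes, hold 60 coding bases each, 5′ to 3′, from the GENCODE transcripts on build GRCm38 (mm10), and all 6 genes lie on the minus strand. Capitals mark the codon of the constriction site, where magnesium block and calcium passage are set.
Grin1: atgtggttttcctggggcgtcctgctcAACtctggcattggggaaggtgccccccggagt
Grin2a: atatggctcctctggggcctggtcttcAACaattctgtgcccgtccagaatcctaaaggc
Grin2c: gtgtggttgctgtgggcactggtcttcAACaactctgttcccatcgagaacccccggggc
Grin2d: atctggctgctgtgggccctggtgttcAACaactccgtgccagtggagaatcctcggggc
Grin3a: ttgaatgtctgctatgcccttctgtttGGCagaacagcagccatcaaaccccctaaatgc

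The Grin1 stretch spans the junction of exons 14 and 15 and lies at chr2:25297283-25297415 with the intron included. The other stretches each lie within 1 coding exon: Grin2a at chr16:9653531-9653590 in exon 10, Grin2c at chr11:115253833-115253892 in exon 11, Grin2d at chr7:45854363-45854422 in exon 8, and Grin3a at chr4:49770554-49770613 in exon 3. The marked codon was AAC in Grin1, Grin2a, Grin2c and Grin2d and GGC in Grin3a. Within these stretches 61.7% of the bases were G or C in Grin1 and Grin2d, 60% in Grin2c, 53.3% in Grin2a and 48.3% in Grin3a.

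Whole transcripts were split further. The longest coding transcript was GC-rich in Grin1 (59.4%), Grin2c (62.1%) and Grin2d (65.0%), and GC-poor in Grin2a (44.8%), Grin2b (45.7%) and Grin3a (49.2%). Grin2a and Grin2b also carry the longest 3′ untranslated regions, of 9929 and 18865 bases, against 1187 bases in Grin1 and 402 in Grin2c. The genes lie at chromosome 2, 25291181 to 25319187 (Grin1, ENSMUSG00000026959), chromosome 16, 9567898 to 9995560 (Grin2a, ENSMUSG00000059003), chromosome 6, 135713233 to 136173511 (Grin2b, ENSMUSG00000030209), chromosome 11, 115249169 to 115267243 (Grin2c, ENSMUSG00000020734), chromosome 7, 45831883 to 45878378 (Grin2d, ENSMUSG00000002771) and chromosome 4, 49661611 to 49845744 (Grin3a, ENSMUSG00000039579).

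The libraries differed in how their counts varied with GC content, and each subunit's difference is therefore given with and without that trend. Levels are given as CPM, the count of a gene scaled to the library total. For each library, log2 CPM was centred on each gene's mean and regressed on transcript GC content. The slope averaged 0.127 ± 0.134 per 10 GC points over the transgenic group (SD, n = 6), against -0.153 ± 0.0640 over the control group (SD, n = 5), with a 2-sided exact permutation p of 0.00433. Every transgenic slope lay above every control slope, but transgenic 6 (-0.0607) and control 2 (-0.0617) were nearly equal. Technical and biological origins of the slope cannot be told apart in these data. Removing the trend would also remove a group difference that runs with GC content. Library totals were 24403918 to 34153726 counts in the transgenic group and 14263784 to 36898689 in controls. The marker lists of the cell types a CA1 dissection can hold gave summed levels that overlapped between the groups for each of the 10 lists. CA1 pyramidal markers (0 of 5 called) summed to 968 to 1224 CPM in transgenic and 824 to 1023 CPM in control libraries. Their defining members Wfs1, Fibcd1 and Mpped1 were at 142 CPM or more in all 11 libraries. Dentate granule markers, of a neighbouring field, summed to 25.5 to 115 and 27.6 to 137 CPM (0 of 3 called), and no listed marker was at 0 in any library. Camk2d, the gene of the transgene, stood at 67.8 ± 36.7 CPM in the transgenic group (SD, n = 6) and 72.0 ± 18.6 CPM in control libraries (SD, n = 5), with an edgeR adjusted p of 0.873.

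Levels of different subunits were compared per kilobase of the gene's exons, since transcript length differs widely. In controls the order was Grin1 (43.8 ± 4.01 CPM per kilobase, SD, n = 5), Grin2b (28.3 ± 4.20), Grin2a (19.9 ± 2.47), Grin2c (16.1 ± 1.27), Grin3a (7.60 ± 1.17) and Grin2d (3.47 ± 0.498). Neighbours in this order did not overlap over the 5 controls, except Grin2a and Grin2c, at 16.7 to 23.3 and 14.3 to 17.6 CPM per kilobase, while the lowest Grin2b and the highest Grin2a value almost met, at 23.35 and 23.34. In transgenic libraries Grin2c (18.0 ± 1.58, SD, n = 6) stood above Grin2a (15.3 ± 1.65) on the same scale, with overlapping ranges of 15.4 to 19.5 and 13.6 to 18.0. The other subunits kept their places. The divisor matters for Grin1, whose annotated exons sum to 9700 bases while its longest coding transcript has 4276. By transcript length Grin1 was at 99.3 ± 9.10 CPM per kilobase in controls (SD, n = 5). On that scale Grin2a and Grin2c stood at 18.8 ± 2.02 and 18.5 ± 1.62 CPM per kilobase in transgenic libraries (SD, n = 6), so their order depends on the divisor.

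Both main GluN2 subunits, Grin2a and Grin2b, had mRNAs called lower in transgenic than in control CA1, and no subunit was called higher. These are calls of the edgeR fit of all 11 libraries, without covariate or GC correction. Neither was kept with the GC trend removed, and the Grin2b call was lost in 10 of 11 fits that left out 1 library. Grin1 and Grin2c were called higher in some other fits. A gene was called changed when its Benjamini-Hochberg adjusted p, over all 17293 genes in edgeR's quasi-likelihood test, was under 0.05. Of the 6 subunits 2 fell and 0 rose by this rule, while 17.9% of all tested genes were called, 10.5% falling and 7.41% rising. With 6 genes, this count cannot be set apart from that background. The median log2 fold change was 0.02 over the 6 subunits and 0.01 over all genes tested. In whole tissue, fewer cells of a type and less RNA per cell cannot be told apart.

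**Figure D1:**
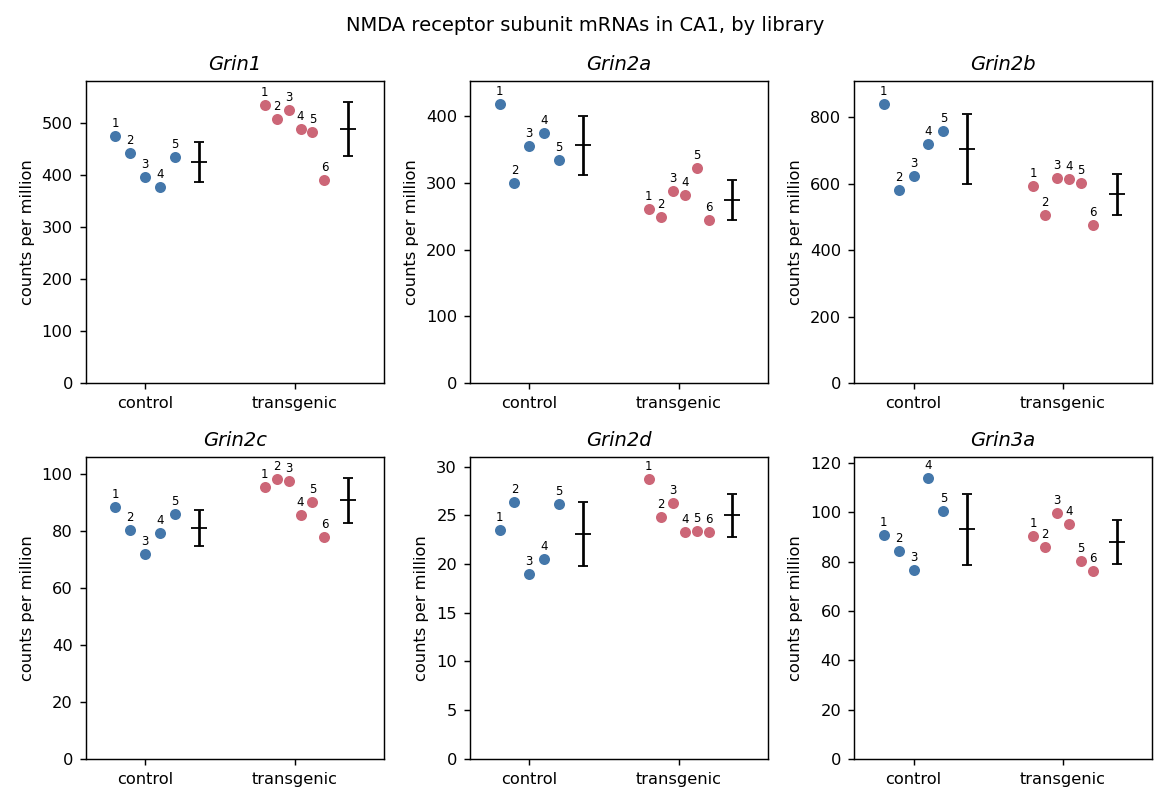
Level in CPM of each subunit mRNA in the 5 control and 6 transgenic libraries, numbered by replicate, with the mean and SD of each group as a bar beside the points (vertical axes start at 0). For Grin2a the controls lie at 300 to 419 CPM and the transgenic libraries at 244 to 323 CPM, and the groups overlap for all 6 genes.

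Grin1 encodes the subunit that every NMDA receptor needs. In transgenic libraries it had a lowest level of 390 CPM, a median of 497 and a highest of 533 CPM. The 5 controls stood at 474, 443, 396, 376 and 434 CPM in the order of their numbers. Transgenic 1 to 5 were all above the highest control, and transgenic 6 lay below 4 of the 5 controls. Grin1 did not pass the test, with a log2 fold change of 0.20 (SE 0.08, 95% interval 0.02 to 0.38, edgeR adjusted p 0.107). Without transgenic 6 it passed, at 0.25 (edgeR adjusted p 0.0123), in a fit that called 27.6% of all genes tested. It also passed with limma voom and sample weights, at 0.22 (adjusted p 0.0305), which likewise called 27.6%. After removal of each library's GC trend the difference was 0.00 (SE 0.06, edgeR adjusted p 0.983).

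Grin2a encodes GluN2A, which gives receptors with fast decay and takes over from GluN2B at maturing synapses. It had a lowest level of 244 CPM, a median of 272 and a highest of 323 CPM in transgenic libraries. The controls were at 419, 300, 356, 375 and 335 CPM. Transgenic 5, at 323 CPM, overlapped with control 2, at 300 CPM, and the other transgenic libraries were lower than every control. Grin2a fell by 0.38 on the log2 scale (SE 0.09, 95% interval -0.57 to -0.19, edgeR adjusted p 0.0172), a change of -23.0%. The call was kept in all 11 fits that each left out 1 library (edgeR adjusted p 0.00940 to 0.0484). It was lost once the GC trend was removed, at -0.25 (SE 0.09, edgeR adjusted p 0.143, unadjusted p 0.0123), where 1.98% of all tested genes were called.

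Grin2b encodes GluN2B, the slower subunit, whose long tail binds CaM kinase II. It had the highest counts of the family, with a lowest level of 476 CPM, a median of 597 and a highest of 617 CPM in transgenic libraries. Controls stood at 839, 580, 622, 718 and 759 CPM. Only control 2 overlapped with the transgenic libraries. Grin2b fell by 0.31 (SE 0.10, 95% interval -0.52 to -0.10, edgeR adjusted p 0.0462), a change of -19.3%. This call lay at the edge of the threshold. It was lost in 10 of the 11 fits that left out 1 library, that is without any 1 of the 6 transgenic libraries or of controls 1, 3, 4 and 5, at edgeR adjusted p of 0.0511 to 0.115, with fold changes of -0.35 to -0.24. Without control 2 it was kept, at -0.37 (edgeR adjusted p 0.0219). After removal of the GC trend the difference was -0.21 (SE 0.10, edgeR adjusted p 0.303).

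Grin2c encodes GluN2C, which is less sensitive to magnesium. It had a lowest level of 77.8 CPM, a median of 92.8 and a highest of 98.2 CPM in transgenic libraries. Controls were at 88.4, 80.3, 72.1, 79.2 and 85.9 CPM. Transgenic 1, 2, 3 and 5 were above every control, and transgenic 4 and 6 lay within the control range. It did not pass the test, at 0.16 (SE 0.07, 95% interval 0.01 to 0.31, edgeR adjusted p 0.119). Without transgenic 6 it passed, at 0.20 (edgeR adjusted p 0.0277). Its sign turned when the GC trend was removed, to -0.06 (SE 0.05, edgeR adjusted p 0.501). Astrocyte markers, a class in which Grin2c has been described, summed to 4409 to 5237 CPM in transgenic and 5171 to 5778 CPM in control libraries. Of these 6 markers Aldh1l1 rose and Slc1a2 fell, and their part in the Grin2c values was not tested.

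Grin2d encodes GluN2D, which gives very slowly closing receptors, and was the least abundant of the 6 per kilobase. It had a lowest level of 23.3 CPM, a median of 24.1 and a highest of 28.8 CPM in transgenic libraries, against 23.5, 26.3, 19.0, 20.5 and 26.2 CPM in controls. The 2 groups overlapped widely. Its log2 fold change was 0.12 (SE 0.09, 95% interval -0.08 to 0.32, edgeR adjusted p 0.398), and -0.14 with the GC trend removed (SE 0.06, edgeR adjusted p 0.242, unadjusted p 0.0385). Interneuron markers summed to 952 to 1093 CPM in transgenic and 925 to 1026 CPM in control libraries, and 1 of 6, the vesicular GABA transporter Slc32a1, rose. Their part in the Grin2d values was not tested.

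Grin3a encodes GluN3A, the subunit with the GGC codon in the stretches shown above. It had a lowest level of 76.2 CPM, a median of 88.2 and a highest of 99.8 CPM in transgenic libraries, and 90.7, 84.4, 76.8, 114 and 101 CPM in controls. The groups overlapped over almost their whole range. Its log2 fold change was -0.08 (SE 0.10, 95% interval -0.29 to 0.13, edgeR adjusted p 0.572) and -0.09 with the GC trend removed (edgeR adjusted p 0.662). A p that misses the threshold does not show that levels were alike. The 95% intervals of Grin1, Grin2c, Grin2d and Grin3a cover the spread between libraries in the uncorrected fit only, and the GC-removed values of Grin1, Grin2c and Grin2d lie outside them.

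In the authors' deposited table of genes lower in transgenic mice, which lists 2014 genes, Grin2a had a log2 fold change of -0.38 (adjusted p 0.000431) and Grin2b of -0.32 (adjusted p 0.0171). The other 4 subunits are listed neither there nor in the authors' deposited table of 1780 genes higher in transgenic mice. Both tables hold the same libraries as used here, so they are no separate check on the calls.

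The signs of the 6 differences followed transcript GC content. The 3 genes at 59.4% GC or more had positive log2 fold changes and the 3 at 49.2% or less had negative ones. Across 17246 tested genes with a GC value, the rank correlation between log2 fold change and GC content was 0.684. Genes are not independent replicates. With the GC trend removed, none of the 6 subunits was called by edgeR, and 2 of them, Grin2a and Grin2d, had an unadjusted p under 0.05. The median over the 6 subunits was then -0.12, against -0.00 over all genes tested.

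**Figure D2:**
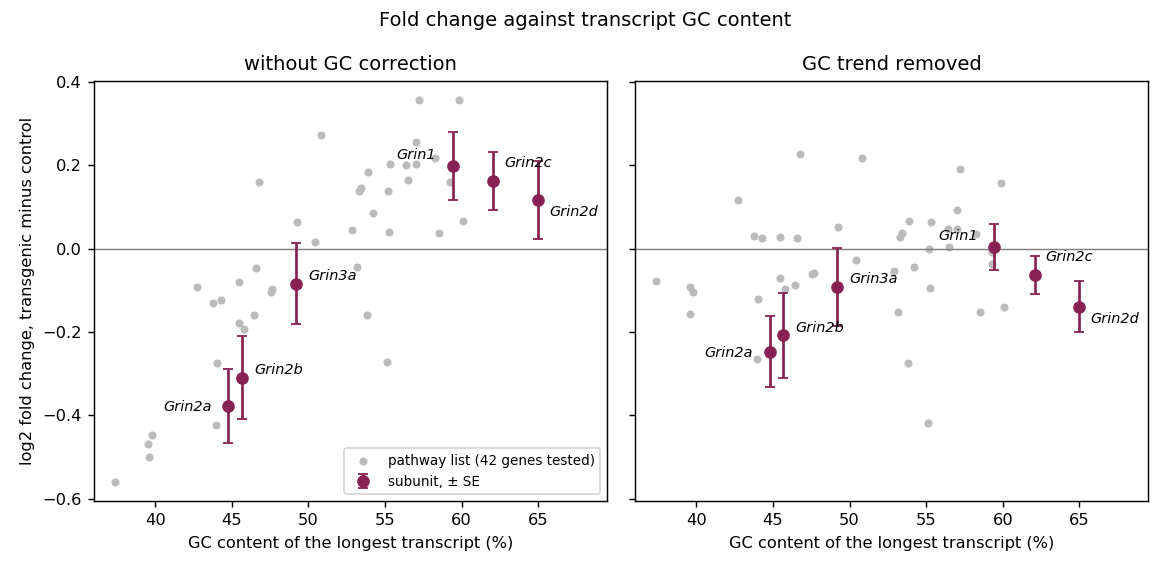
Log2 fold change (transgenic minus control) against GC content of the longest transcript, without correction on the left and with each library's GC trend removed on the right. Dark points are the 6 subunits with their standard error and grey points the 42 tested genes of the wider pathway. Grin2a and Grin2b stand at -0.38 and -0.31 on the left and at -0.25 and -0.21 on the right, while Grin1 moves from 0.20 to 0.00.

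The libraries of each group also differed in slope, which allowed the levels to be read at a similar slope. Transgenic 6 and control 2 had nearly equal slopes. In that pair Grin1 was at 390 CPM in transgenic 6 and 443 CPM in control 2. Grin2a was at 244 and 300 CPM, and Grin2b at 476 and 580 CPM, in the same order. Grin2c was at 77.8 and 80.3 CPM, Grin2d at 23.3 and 26.3 CPM, and Grin3a at 76.2 and 84.4 CPM. All 6 mRNAs were thus lower in the transgenic library of this pair, which was also the lowest of its group for each subunit but Grin2d. With 1 library on each side, no test was possible.

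**Figure D3:**
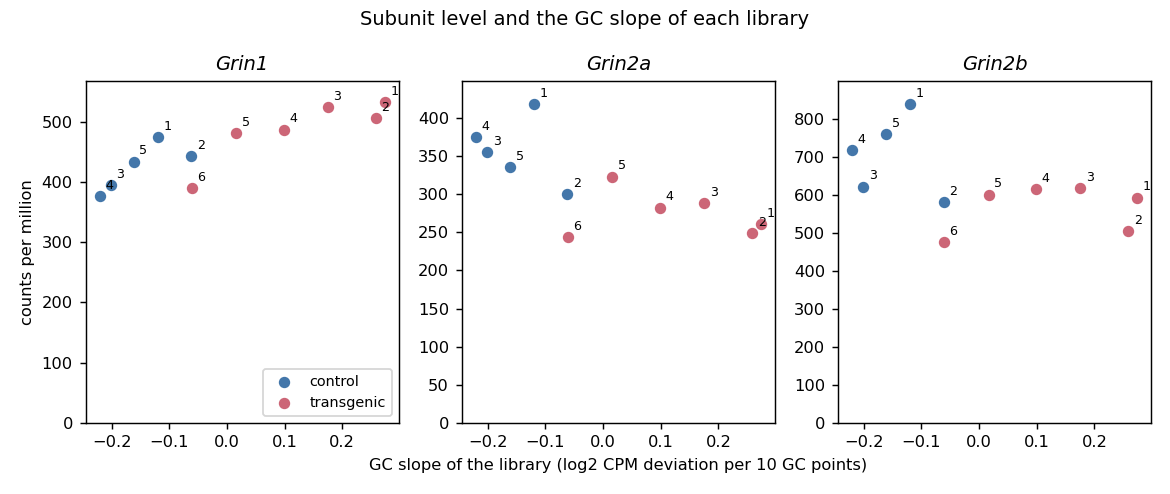
Level in CPM of Grin1, Grin2a and Grin2b against the GC slope of each library (log2 CPM deviation per 10 GC points), with libraries numbered by replicate. Transgenic 6 and control 2 share a slope near -0.06, where the transgenic library is lower for all 3 genes (Grin2a at 244 against 300 CPM).

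Ratios between 2 subunits in the same library do not depend on how libraries are scaled, and they set the composition of the receptor's mRNAs. The log2 ratio of Grin2b to Grin2a counts did not differ beyond the spread of the libraries. The transgenic minus control difference was 0.07, with a 2-sided exact permutation p of 0.346. Written as Grin2a over Grin2b, the ratio was -1.05 ± 0.108 in transgenic (SD, n = 6) and -0.98 ± 0.135 in control libraries (SD, n = 5). The 2 mRNAs that fell were therefore lower by amounts that these libraries do not separate.

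The ratios of all 15 pairs were then compared, a choice made after the values of the single genes had been seen. The log2 ratio of Grin1 to Grin2a counts was 0.58 to 1.03 in transgenic libraries and 0.01 to 0.56 in controls. Every transgenic library was above every control, and the difference was 0.57. The exact permutation p was 0.00216, the smallest that 6 against 5 libraries can give, and 0.0108 adjusted over the 15 pairs. The ratio of Grin1 to Grin2b was -0.33 to 0.00 in transgenic libraries and -0.93 to -0.39 in controls, a difference of 0.50 with the same exact p-values.

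Another 2 pairs, both with Grin2c as the second gene, differed as well. The log2 ratio of Grin2a to Grin2c was 1.34 to 1.84 in transgenic libraries and 1.90 to 2.30 in controls, a difference of -0.54 (exact permutation p 0.00433, adjusted over the 15 pairs 0.0162). That of Grin2b to Grin2c was 2.36 to 2.84 and 2.85 to 3.25, a difference of -0.46 (exact permutation p 0.00216, adjusted 0.0108). These 4 pairs did not overlap between the groups. They all set Grin1 or Grin2c against Grin2a or Grin2b, so they are not independent of each other. How often pairs of other genes do not overlap was not computed. The other 11 pairs had adjusted p of 0.0541 or more. Each of the 4 pairs sets a GC-rich against a GC-poor transcript. Once the GC trend was removed, the differences were 0.25 and 0.21 for Grin1 to Grin2a and Grin2b, and -0.18 and -0.14 for Grin2a and Grin2b to Grin2c. Their exact permutation p adjusted over the 15 pairs was then 0.0974, 0.227, 0.195 and 0.487.

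Expressed as shares of the 4 Grin2 mRNAs per kilobase of exon, Grin2b made up 41.6% ± 1.94 in controls (SD, n = 5) and 38.1% ± 1.74 in transgenic libraries (SD, n = 6). Grin2a went from 29.4% ± 2.13 to 25.5% ± 1.70, and Grin2d from 5.16% ± 0.929 to 6.28% ± 0.583. The share of Grin2c was 22.5% to 26.6% over the controls and 27.9% to 33.9% over the transgenic libraries, which did not overlap. These shares restate the ratios above and were not tested. They depend on the annotated lengths, and with longest coding transcripts the mean Grin2c share was 22.4% in controls and 28.4% in transgenic libraries.

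**Figure D4:**
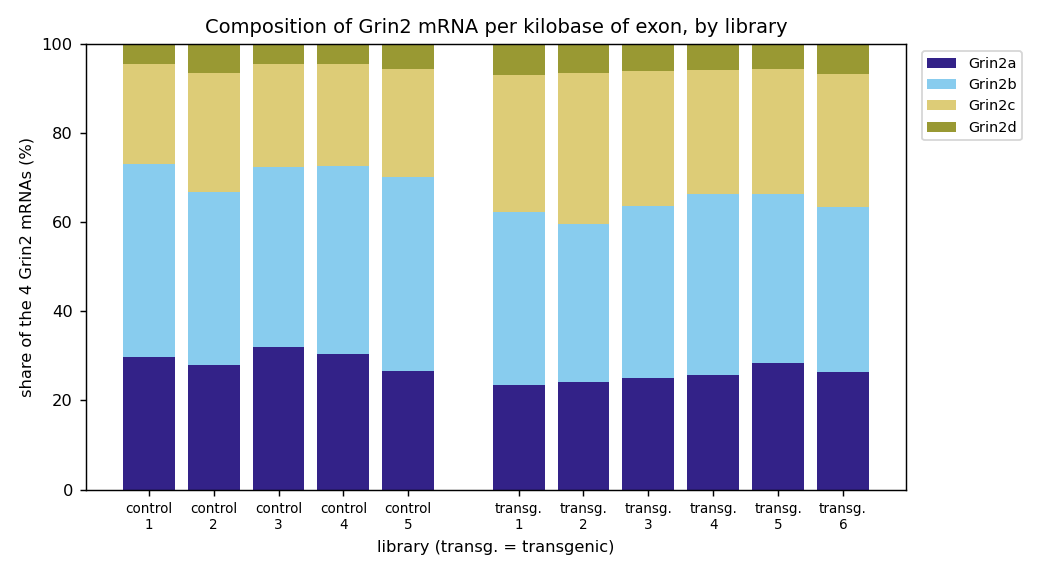
Share of each Grin2 mRNA in the sum of the 4, per kilobase of exon (vertical axis in percent, 1 bar per library). The Grin2c band spans 22.5% to 26.6% in the 5 controls and 27.9% to 33.9% in the 6 transgenic libraries, without removal of the GC trend.

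Over the 11 libraries, Grin2a and Grin2b varied together, with a Pearson r of log2 CPM of 0.880, and 0.860 with the GC trend removed. Grin1 and Grin2c had an r of 0.901, and 0.396 with the trend removed. Grin1 and Grin2a had -0.349 before and 0.581 after the removal, so their relation changed sign with the treatment of GC content. These values describe 11 libraries that share 2 groups and the GC slope, and are given without a test. Among 8478 other protein-coding genes with a mean log2 CPM of at least 4, the genes most like Grin2a over the libraries were Nckap1 (r 0.953) and Ncor1 (0.953). For Grin2b they were Dlgap1 (0.967), which encodes a scaffold of the postsynaptic density, and Nsd1 (0.958), for Grin1 Coro7 (0.986) and Carm1 (0.981), and for Grin2c Gramd1a (0.964) and Arhgef40 (0.962). For Grin2d they were Jag2 (0.958) and Dgkq (0.950), and for Grin3a Pnma2 (0.966) and Drosha (0.902).

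The library kit did not mark strand, so reads within exon bases that a subunit shares with another gene cannot be assigned by strand. How such reads were counted is not given. Grin1 shares 1307 exon bases with Grin1os on the opposite strand, which was at 13.0 to 22.2 CPM (log2 fold change 0.11, edgeR adjusted p 0.529). Grin2d shares 643 with Gm45441, at 2.78 to 4.15 CPM, and Grin2b shares 49 with Gm26653, at 0.576 to 1.40 CPM. Grin2b also shares 143 with Gm14329 and 86 with Gm22892, both at 0 counts in every library, and Grin2c shares 91 with Gm25837, at 0.0720 CPM or less. Kdelr1 overlaps the Grin2d gene and Ppp3r2 the Grin3a gene, without sharing exon bases. No gene overlapping Grin2a was found in the annotation.

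The receptor works with a wider set of proteins, for which a list of 44 genes was examined. Of the 42 genes tested, 6 rose and 7 fell, which is 31.0% called against 17.9% of all genes tested. The list was chosen with earlier results of these data known. Its genes were not matched in expression level to the genes they are set against. Whether the list held an excess of called genes was therefore not tested. The list median was 0.04. Dao, which breaks down D-serine, and Grin3b, the remaining subunit gene, had 30 and 70 counts over all 11 libraries together and were not tested. Grin3b was at 0.0392 to 0.421 CPM. The genes that rose had transcripts of 53.4% GC or more and those that fell of 46.5% or less. With the GC trend removed, edgeR called 0 of the 42, with 10 at an unadjusted p under 0.05 and a lowest adjusted p of 0.0907, for Nos1.

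Co-agonist supply had 2 rises and 0 falls among 5 tested genes. Slc7a10, an astrocyte and neuronal transporter of glycine and D-serine, rose by 0.25 (SE 0.06, edgeR adjusted p 0.0181), from 34.7 ± 2.56 CPM (SD, n = 5) to 41.4 ± 2.55 CPM (SD, n = 6). Phgdh, the first enzyme of serine synthesis, rose by 0.36 (SE 0.09, edgeR adjusted p 0.0228). They were at 0.09 and 0.19 after GC removal and were not called. Slc7a10 also missed the threshold without control 4, and Phgdh without transgenic 3 or control 1, 3 or 5.

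Scaffold and trafficking genes had 1 rise and 3 falls among 11. The Lin7 proteins, with Cask, form an adaptor complex that carries NMDA receptors along dendrites. Its members did not move one way. Lin7b rose by 0.36 (SE 0.08, edgeR adjusted p 0.0129), from 25.1 to 29.6 CPM in controls to 30.0 to 40.2 CPM in transgenic libraries. Lin7c fell by 0.56 (SE 0.13, edgeR adjusted p 0.0173), from 78.5 to 124 CPM to 57.7 to 82.8 CPM, and Lin7a by 0.42 (SE 0.10, edgeR adjusted p 0.0175). Cask fell by 0.16 (SE 0.05, edgeR adjusted p 0.0420). Lin7b, with 59.9% GC, and Lin7c, with 37.3%, stood near opposite ends of the list in GC content, and the GC-removed differences were 0.16 and -0.08. Lin7a was then at -0.27 (edgeR adjusted p 0.108). Dlg4, which encodes PSD-95, the main scaffold that binds GluN2 tails, had 0.16 (edgeR adjusted p 0.228) and 0.23 with the trend removed (0.235).

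Among 7 kinases and phosphatases 2 rose and 1 fell. Ptpn5, the phosphatase STEP that removes a phosphate from GluN2B, rose by 0.20 (SE 0.06, edgeR adjusted p 0.0298). Cdk5, a kinase of GluN2 subunits, rose by 0.15 (SE 0.05, edgeR adjusted p 0.0444). Csnk2a1, a catalytic subunit of casein kinase 2, which phosphorylates the GluN2B tail, fell by 0.27 (SE 0.09, edgeR adjusted p 0.0478). None of the 3 was called with the GC trend removed, at 0.05, 0.04 and -0.12.

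Calcium signalling partners had 1 rise and 1 fall among 11. Calm3, a calmodulin gene, rose by 0.22 (SE 0.06, edgeR adjusted p 0.0267). Ppp3cb, a catalytic subunit of the phosphatase calcineurin, fell by 0.45 (SE 0.09, edgeR adjusted p 0.0126), from 343 to 388 CPM in controls to 222 to 319 CPM in transgenic libraries, without overlap. Camk2a and Camk2b, the brain forms of the kinase that binds GluN2B, were at 0.14 and 0.19 (edgeR adjusted p 0.340 and 0.127). After GC removal Calm3 was at 0.04 and Ppp3cb at -0.10.

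Of 4 messengers from synapse to nucleus, Creb1, the transcription factor activated by calcium signals, fell by 0.50 (SE 0.12, edgeR adjusted p 0.0190), from 56.7 to 66.8 CPM in controls to 32.9 to 55.1 CPM in transgenic libraries. Among 4 tested surface partners, Neto1, an auxiliary protein found with NMDA and kainate receptors, fell by 0.47 (SE 0.07, edgeR adjusted p 0.0103). Its controls stood at 78.4 to 103 CPM and its transgenic libraries at 61.6 to 73.8 CPM, again without overlap. After GC removal Creb1 was at -0.16 and Neto1 at -0.09, neither of them called.

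**Figure D5:**
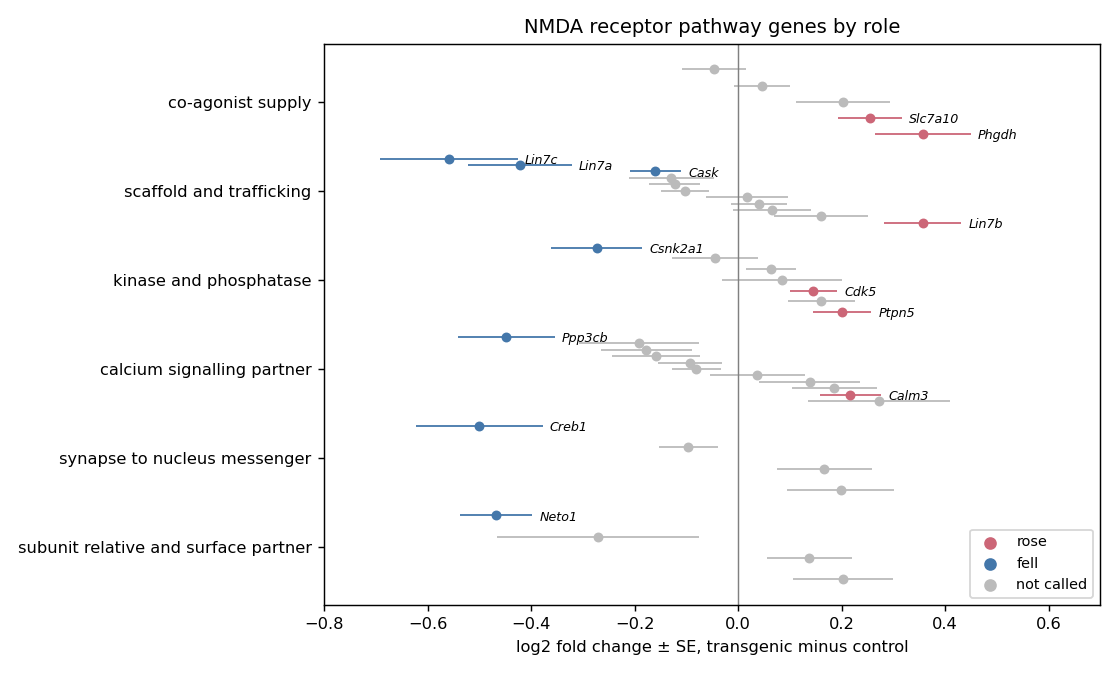
Log2 fold change (transgenic minus control, bars are standard errors) of the 42 tested pathway genes, grouped by role, with the 6 that rose in red, the 7 that fell in blue and the others in grey. Lin7c stands lowest at -0.56, and Phgdh and Lin7b stand highest at 0.36 each.

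Non-overlapping levels were found for 6 of the 42 tested pathway genes (Lin7a, Lin7b, Cask, Ppp3cb, Creb1 and Neto1), all of them called, and for no subunit. Over all genes tested, 7.77% had groups that did not overlap. When libraries were left out in turn, Lin7b, Lin7c, Ppp3cb and Neto1 were called in all 11 fits. Lin7a was lost without control 4 and Creb1 without control 3. Slc7a10 was called in 10 of the 11 fits and Phgdh in 7, as described above. The other called genes had fewer calls, with 5 of 11 for Calm3, 4 for Ptpn5, 3 for Cdk5, 3 for Cask and 2 for Csnk2a1. All 13 called genes were also listed, in the same direction, in the authors' deposited tables, which further list Snx27 as lower (log2 fold change -0.11, adjusted p 0.0378). Those tables hold the same libraries, so the match is no separate check.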

How the data were processed

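Raw counts of reads per gene were deposited for each of 11 libraries (build mm10). Per the submitters' processing notes the tools were STAR 2.5.2b, Subread 1.5.1 with featureCounts, and FastQC 0.11.5. Their settings are not given here. Per the labels' protocols, the kit (TruSeq, polyadenylated RNA) was read as single ends of 50 bases. The authors also deposited tables of genes higher and lower, with a log2 fold change and an adjusted p-value per gene and a signal per library, which was not used here. Names came from GENCODE mouse release M21 (GRCm38), which named 48349 identifiers. Replicates differed beyond sampling noise (chi-square over its degrees of freedom, 6.75 to 53.8 per pair), and each was counted once.

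Counts were tested with edgeR 4.0.16 in R 4.3.3 (filterByExpr, TMM, quasi-likelihood F test, no covariate, all 11 libraries), and adjusted by Benjamini-Hochberg over all 17293 genes. The standard error is the fold change over the root of F. The GC trend was removed as a lowess curve (span 0.3) per library, entered as an offset. Ratios added 0.5 to each count. The alternatives were DESeq2 size factors, no filter, DESeq2 1.42.0, limma 3.58.1 voom with sample weights, the level of Xist as a covariate, a replicate block, removal of GC or GC and length trends, and each library left out. The procedure was tested on simulated counts. Named pathway genes were those called, up to 4 for each role, and for likeness the 2 genes with the highest Pearson r. A few others are named beside them, and some items are not reported here. The members and lists were chosen with earlier results of these data known. Marker lists of CA2 and CA3 neurons, oligodendrocytes and their precursors, endothelium and choroid plexus had 0 called genes, and of 4 microglia markers 1, Csf1r, rose.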

Additional observations from a re-analysis of the deposited data

Results flagged for a closer look

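Grin1 in transgenic 6, at 390 CPM, lay far below the other 5 transgenic libraries. Its gap to the nearest of them was 0.643 of the group's range, against a critical value of 0.625 for 6 samples. In all, 12 groups were examined in this way (6 subunits in 2 genotypes), and chance flags about 1 in 20 groups. The same library had the lowest GC slope of its group, and also the lowest levels of Grin2a, Grin2b, Grin2c and Grin3a in it, at 244, 476, 77.8 and 76.2 CPM.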

How the results depend on the processing

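Grin2a kept its direction under all 9 alternatives and its call in 6, at -0.38 to -0.34. It missed the threshold with GC removed (-0.25, edgeR adjusted p 0.143), GC and length removed (-0.15, 0.341) and GC removed with the replicate block (-0.19, 0.189), and was at -0.43 to -0.31 without single libraries. Grin2b missed it with no filter (-0.31, adjusted p 0.0540) and in the same 3 fits (-0.21, -0.082 and -0.14), and was at -0.37 to -0.24 without single libraries. Grin1 passed with voom (0.22) and the replicate block (0.26, edgeR adjusted p 0.0116), and ranged from 0.16 to 0.25 without single libraries. Only the transgenic group has a replicate 6, so in fits with the block that library adds nothing to the group difference. The block is therefore close to the fit without transgenic 6 and is no separate check on it. Grin2c passed with the block (0.20, edgeR adjusted p 0.0375), ranged from 0.12 to 0.20 without single libraries, and turned to -0.064, -0.066 and -0.049 with GC, GC and length, and GC with the block. Grin2d turned to -0.14, -0.13 and -0.16 in those fits, and its ratio to Grin3a from 0.20 to -0.057 with GC removed. Grin3a and the ratio of Grin2b to Grin2a stayed on the same side throughout.

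Of the subunits 1 was called with no filter and 4 with the block, which called 4594 of all genes tested. The number was 0 in each of the 3 GC fits (2, 1 and 1 at an unadjusted p under 0.05) and 1 to 3 without single libraries. Of the pathway genes 0, 0 and 1 (Dlg4) were called in the GC fits, and 6 to 19 without single libraries. Over all genes, calls numbered 3094 (41.4% rising), 4774 with voom, 342 with GC removed (58.5% rising), 294 with GC and length removed (68.0%), 745 with GC removed and the block (57.9%), 2069 with no filter (32.0%), and 1155 (without control 4) to 4712 (without transgenic 6). The cause of these shifts was not tested. Same-numbered libraries correlated at 0.197, -0.0267, -0.185, -0.0514 and 0.0232 in their deviations, and only the first pair correlated best with its own number, so the numbers were not treated as pairing.

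With GC removed and 1 library left out, Grin2a ranged from -0.29 to -0.18 and Grin2b from -0.26 to -0.13, with no call. This choice and the pair ratios were made after seeing the data. Depth limits Grin2d most, with 373 to 867 counts per library, while the other subunits had 1225 or more.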
